A study of Mus musculus with 4 samples.

Results

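The 10 genes described here carry long-chain fatty acids from outside a cell to the first step of their use: Cd36, Slc27a1 and Slc27a4 act at the membrane, Fabp3, Fabp4 and Fabp5 bind fatty acids in the cytosol, and Acsl1, Acsl3, Acsl5 and Acsl6 join them to coenzyme A. They were chosen by symbol, with earlier results of these data known. All 10 were found among 55573 gene IDs and had enough reads to be tested. Reads were counted per gene in 4 RNA-seq libraries of quadriceps, the large thigh muscle, taken at 7 weeks of age, 2 from wild-type animals (WT; C57BL/6J) and 2 from the strain B6.129S4-Vdrtm1Mbd/J, whose Vdr genotype is labelled vdr-/-. Vdr encodes the nuclear receptor of active vitamin D, the strain carries the mutation in every tissue, and the series title asks how vitamin D signalling bears on the fuel that muscle uses. Both groups had regular chow, and the labels name no other treatment.

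Muscle fibres take up fatty acids from blood across the capillary wall and their own membrane. CD36 binds fatty acids at the surface, and the FATP proteins, encoded by the Slc27a genes, couple entry to activation. Small FABP proteins then keep the water-insoluble chains in solution, and the ACSL enzymes make the acyl-CoA that can be oxidised in mitochondria or stored as triglyceride. Muscle fibres are known for FABP3 and heart muscle for ACSL1, whereas FABP4 is known from fat cells and capillary endothelium. Fat cells between the fibres also express Cd36, Slc27a1 and Acsl1 strongly.

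Total counts were between 10789025 and 21336982 a library, and the deepest library was knockout replicate 1. Vdr had 5 and 0 counts in WT against 5 and 1 in the knockout, which does not check the labels. Muscle fibre genes marked the tissue as labelled: Myh4, a myosin of fast fibres, lay between 20825 and 23600 CPM (reads of a gene scaled to the library total), and Acta1, the actin of skeletal muscle, between 14742 and 17011 CPM in the 4 libraries. By their reads the groups differed in sex: Xist, the RNA of the inactive X chromosome, had 183 and 217 CPM in WT against 0 and 0.256 CPM in the knockout, and the Y-linked Ddx3y 4.74 and 0 CPM in WT against 75.8 and 63.0 CPM in the knockout. WT replicate 1 thus held reads of both kinds. Genotype and sex cannot be told apart in any difference below.

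The edgeR fit over all libraries called 4 of the 10 genes higher in the knockout and none lower, at an adjusted p below 0.05 over all 13076 tested genes, of which 2.03% were called, 1.61% higher and 0.413% lower. The 4 were Fabp4, Slc27a1, Acsl1 and Cd36, which rose between 1.96-fold and 2.79-fold. The other 6, Fabp3, Fabp5, Slc27a4, Acsl3, Acsl5 and Acsl6, were not called. The log2 fold change was above 0 for all 10, as for 49.9% of tested genes, and its median was 0.53 against -0.00069 over all tested genes. For 8 of the 10 both knockout libraries lay above both WT libraries, as they did for 23% of tested genes, and for none of the 10 did they lie below, as they did for 21.7%. Since the 10 genes were chosen with earlier results known, setting them beside all tested genes is a description. Leaving out any 1 library kept the same 4 genes called and no other. In bulk tissue, more cells of a type and more RNA in each cell cannot be told apart.

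**Figure D1:**
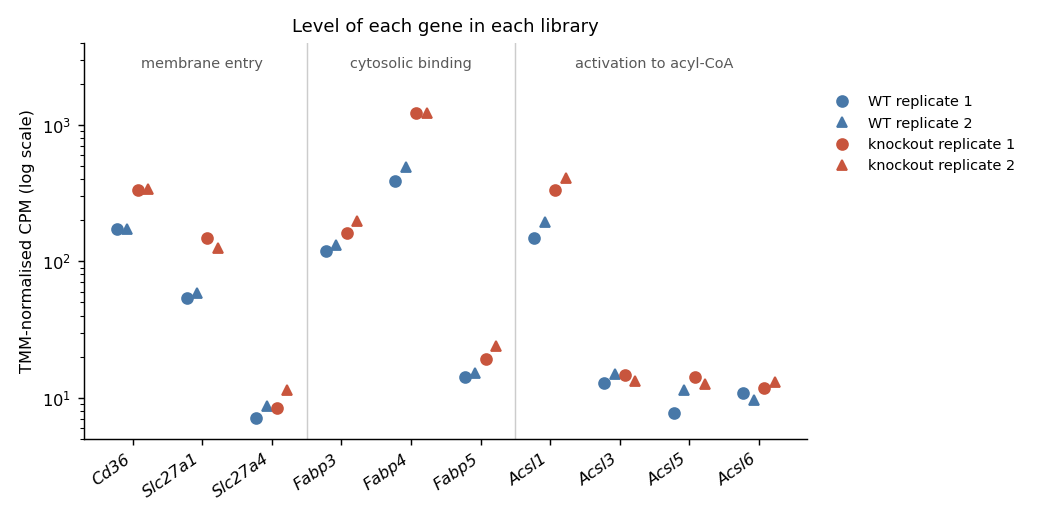
TMM-normalised CPM of the 10 genes on a log axis, 1 point per library (blue WT, red knockout; circles replicate 1, triangles replicate 2), in the order of their roles. Cd36, Slc27a1, Fabp4 and Acsl1 show a wide gap between blue and red points, while the points of Slc27a4 and Acsl3 overlap.

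At the membrane, Cd36 and Slc27a1 rose and Slc27a4 was not called. Cd36, the fatty acid translocase (ENSMUSG00000002944, chromosome 5, 17781690 to 17888801 on GRCm38, minus strand), had 171.3 and 171.4 CPM in WT against 332 and 339 CPM in the knockout, with 1808 to 6981 reads a library. Its replicates lay closer together than those of any other of the 10 genes in WT, and the groups were far apart. The log2 fold change was 0.97 ± 0.12 (SE; 1.96-fold, 95% interval 1.62 to 2.36; edgeR adjusted p = 0.00285). Slc27a1, which encodes FATP1, the transporter of muscle and fat (ENSMUSG00000031808, chromosome 8, 71568882 to 71587302, plus strand), had 53.5 and 58.5 CPM in WT against 149 and 125 CPM in the knockout. Both knockout libraries were more than 2-fold above both WT libraries, and the log2 fold change was 1.29 ± 0.13 (2.44-fold, 1.98 to 3.01; adjusted p = 0.00129). Slc27a4, which encodes FATP4, a transporter that is also an acyl-CoA synthetase (ENSMUSG00000059316, chromosome 2, 29802634 to 29817522, plus strand), had 7.11 and 8.74 CPM in WT against 8.46 and 11.3 CPM in the knockout. Its groups overlapped, and the interval of its fold change, 0.896 to 1.69, includes no change as well as a moderate rise (adjusted p = 0.582).

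The ratio of the transporter pair does not depend on how libraries are scaled. Slc27a1 had 7.53 and 6.70 reads per Slc27a4 read in WT against 17.6 and 11.02 in the knockout. The groups did not overlap, and the exact two-sided permutation p was 0.333, the smallest that 2 libraries against 2 can give. Each of the 17 ratios computed to another of the 10 genes, to Adipoq or to summed endothelial markers had groups that did not overlap and this same p, so none of them could pass a threshold of 0.05.

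The sequence before the start of the 3 genes that rose and have a RefSeq promoter window (GRCm38.p6; 250 bases before to 50 after the start) is shown because nuclear receptors of this pathway bind direct repeats of AGGTCA: the lipid-sensing PPAR factors with RXR prefer repeats 1 base apart (DR1, AGGTCANAGGTCA) and the vitamin D receptor with RXR prefers repeats 3 bases apart (DR3, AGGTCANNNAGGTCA). Capitals mark matches to DR1 or DR3 on either strand with at most 2 mismatches, and to the GC box GGGCGG with none, on either strand.
Cd36, chr5:17835847-17836146, minus strand: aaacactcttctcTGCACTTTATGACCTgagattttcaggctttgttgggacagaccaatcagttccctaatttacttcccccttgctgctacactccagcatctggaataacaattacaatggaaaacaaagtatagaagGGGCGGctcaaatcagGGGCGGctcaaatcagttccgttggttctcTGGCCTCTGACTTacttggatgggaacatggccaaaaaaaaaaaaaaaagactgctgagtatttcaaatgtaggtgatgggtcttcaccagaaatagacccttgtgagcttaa
Slc27a1, chr8:71568621-71568920, plus strand: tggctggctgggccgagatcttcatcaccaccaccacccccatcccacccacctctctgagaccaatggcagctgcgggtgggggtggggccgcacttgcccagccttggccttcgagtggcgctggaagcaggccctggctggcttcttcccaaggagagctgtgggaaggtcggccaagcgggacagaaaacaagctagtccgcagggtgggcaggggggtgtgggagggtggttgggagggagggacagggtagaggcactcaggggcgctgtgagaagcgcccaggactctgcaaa
Acsl1, chr8:46470787-46471086, plus strand: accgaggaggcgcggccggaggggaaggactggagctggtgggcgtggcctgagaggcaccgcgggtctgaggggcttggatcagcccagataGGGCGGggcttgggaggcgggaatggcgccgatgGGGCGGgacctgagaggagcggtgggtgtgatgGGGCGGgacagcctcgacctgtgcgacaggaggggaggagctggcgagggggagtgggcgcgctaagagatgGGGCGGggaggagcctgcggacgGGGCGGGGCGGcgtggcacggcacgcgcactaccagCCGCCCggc

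In these windows only Cd36 held a DR1 match, at -63 to -51 from its start, and a DR3 match, at -237 to -223, each on the reverse strand with 2 mismatches. Of 32817 windows of the same length, 3.86% held such a DR1 match and 3.06% such a DR3 match. The Cd36 window lies inside the GENCODE gene, whose other transcripts begin further upstream, so it is 1 of several starts. The Acsl1 window is rich in G and C (74% against a median of 52.7% over all windows) and held 7 GC boxes, 2 of them overlapping, which 35.6% of all windows contain at least once. The Slc27a1 window shown held none of these motifs, and its GC content was 65.7%. Slc27a1 has 2 further windows, which held 1 and 3 GC boxes, and Acsl1 has another of 50% GC with no GC box, so the picture differs between starts of the same gene. The 10 genes have 13 windows in all, for 8 genes, and the others held no DR1 or DR3 match. Fabp4 and Fabp5 have no window in the table used. A match of letters is a description and not a binding site.

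Among the binding proteins, Fabp4 rose the most of the 10 genes. Fabp4, the FABP of fat cells and endothelium (ENSMUSG00000062515, chromosome 3, 10204088 to 10208576, minus strand), had 387 and 490 CPM in WT against 1218 and 1227 CPM in the knockout, with 4086 to 25618 reads a library. The WT libraries differed 1.26-fold from each other and the knockout libraries hardly at all, and the lowest knockout value was well above the highest WT value. The log2 fold change was 1.48 ± 0.15 (2.79-fold, 95% interval 2.21 to 3.51; adjusted p = 0.00101). Fabp3, the FABP of muscle fibres (ENSMUSG00000028773, chromosome 4, 130308595 to 130315463, plus strand), had 119 and 132 CPM in WT against 161 and 197 CPM in the knockout. Its groups did not overlap, yet the difference did not pass over all genes (log2 fold change 0.51 ± 0.14; 1.42-fold, 1.15 to 1.76; unadjusted p = 0.00416, adjusted p = 0.109). Fabp5, a FABP of several cell types, among them those of skin, macrophages and endothelium (ENSMUSG00000027533, chromosome 3, 10012548 to 10016607, plus strand), had 14.1 and 15.1 CPM in WT against 19.1 and 23.8 CPM in the knockout. It too had groups apart and was not called (0.54 ± 0.16; 1.46-fold, 1.14 to 1.86; adjusted p = 0.133).

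Per kilobase of the principal transcript, Fabp4 made up 73.0% and 75.7% of the summed level of the 3 FABP genes in WT against 86.4% and 83.9% in the knockout. The share of Fabp3 was 24.5% and 22.2% in WT against 12.4% and 14.7% in the knockout, and that of Fabp5 lay between 1.23% and 2.42% in all libraries. These shares depend on the length used. Per kilobase of all annotated exons, Fabp4 had 86.3 and 109 CPM in WT, below Fabp3 at 145 and 160. In the knockout Fabp4 had 271 and 273 on that length, above Fabp3 at 195 and 240. In reads, Fabp4 had 3.24 and 3.72 per Fabp3 read in WT against 7.58 and 6.23 in the knockout. The FABP reads thus held more Fabp4 relative to Fabp3 in both knockout libraries, in which the level of Fabp3 itself lay above WT. Cd36 had 0.442 and 0.3498 reads per Fabp4 read in WT against 0.273 and 0.276 in the knockout. Copies took few reads: the processed pseudogene Fabp3-ps1 took 4 and 10 reads in WT against 7 and 24 in the knockout, beside 1261 to 3381 for Fabp3, and Fabp5l2 had none.

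**Figure D2:**
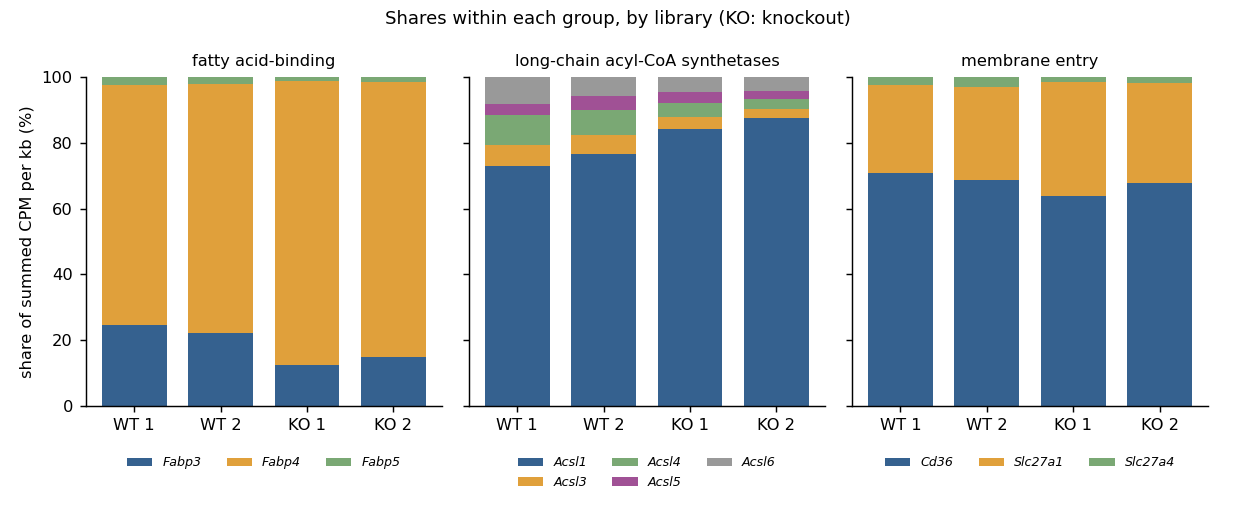
Shares of each gene in the summed level of its group, as CPM per kilobase of the principal transcript (%, y axis), in each library (x axis), for the FABP genes, the long-chain acyl-CoA synthetases with Acsl4, and the membrane genes. All shares depend on the length used. Per kilobase of all annotated exons, Fabp3 lies above Fabp4 in both WT libraries. The annotated exons of Slc27a1 span 5835 bases against 2795 in its principal transcript, and those of Cd36 3590 against 3399. As plotted, the share of Fabp4 in the knockout libraries is 83.9% or more and that of Acsl1 84.2% or more. Cd36 as plotted keeps between 63.9% and 70.7% of its group in all 4 libraries.

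Among the activating enzymes Acsl1 rose and the other 3 were not called. Acsl1, the main long-chain acyl-CoA synthetase of muscle, heart and fat (ENSMUSG00000018796, chromosome 8, 46471037 to 46536051, plus strand), had 147 and 192 CPM in WT against 333 and 407 CPM in the knockout. The libraries of each group differed by 1.31-fold and 1.22-fold, less than the gap between the groups, and the log2 fold change was 1.12 ± 0.16 (2.18-fold, 95% interval 1.70 to 2.80; adjusted p = 0.00602). Acsl5, a synthetase of mitochondria and endoplasmic reticulum (ENSMUSG00000024981, chromosome 19, 55251938 to 55297720, plus strand), had 7.68 and 11.5 CPM in WT against 14.3 and 12.6 CPM in the knockout. WT replicate 1 was the low library, and without it the fold change was smaller (log2 0.24 against 0.49 ± 0.20 in all libraries, adjusted p = 0.31). Acsl6, a synthetase best known from brain and also made in muscle (ENSMUSG00000020333, chromosome 11, 54303798 to 54364756, plus strand), had 10.9 and 9.60 CPM in WT against 11.8 and 13.1 CPM in the knockout (1.21-fold, 0.940 to 1.57; adjusted p = 0.507). Acsl3, a synthetase of lipid droplets and endoplasmic reticulum (ENSMUSG00000032883, chromosome 1, 78657825 to 78707743, plus strand), had 12.9 and 14.9 CPM in WT against 14.7 and 13.3 CPM in the knockout. The groups of Acsl3 overlapped, and the interval of its fold change ran from 0.793 to 1.29 (adjusted p = 0.981), narrower than that of Slc27a4 or Acsl5.

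Acsl1 had 4.68 and 5.35 reads in WT, and 8.17 and 10.4 in the knockout, for each read of Acsl3, Acsl5 and Acsl6 together. With Acsl4, an X-linked synthetase that prefers arachidonic acid and is not among the 10, Acsl1 made up 73.0% and 76.5% of the level of the family per kilobase in WT against 84.2% and 87.4% in the knockout. Some members share exons with other genes. Acsl5 shares 404 exonic bases with Zdhhc6, Acsl6 202 with Gm12224, Acsl1 1039 with Gm45244, and Fabp3 81 with Zcchc17 and 80 with Gm10570, all on the opposite strand, and Acsl3 shares 244 with Utp14b on its own strand. The counts kept strands apart: where a gene is wholly covered by exons of another, 111 of 438 had reads if that other gene is on the opposite strand and 1 of 584 if it is on the same strand.

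**Figure D3:**
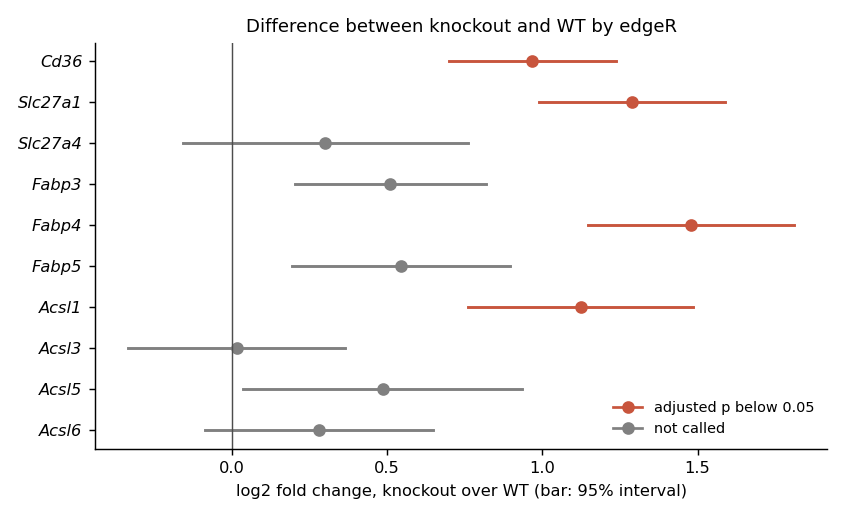
Log2 fold change of each gene, knockout over WT (x axis), with its 95% interval from the edgeR fit, n = 2 libraries in each group. The intervals of Cd36, Slc27a1, Fabp4 and Acsl1 (red) begin at 0.70, 0.99, 1.15 and 0.76, and those of Slc27a4, Acsl3 and Acsl6 include 0.

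Levels of different genes are comparable only per length, here as CPM per kilobase of the principal transcript. In WT, Fabp4 came first at 489 ± 81.0 (SD, n = 2), then Fabp3 at 153 ± 10.5, Cd36 at 50.4 ± 0.00375, Acsl1 at 43.6 ± 8.18, Slc27a1 at 20.0 ± 1.26 and Fabp5 at 14.8 ± 0.729 CPM per kilobase. The lowest 4 were Acsl6 at 3.95 ± 0.354, Acsl3 at 3.52 ± 0.361, Acsl5 at 2.26 ± 0.632 and Slc27a4 at 1.95 ± 0.285 CPM per kilobase. Neighbours in this order that did not differ beyond their spread in WT were Cd36 and Acsl1, Acsl6 and Acsl3, and Acsl5 and Slc27a4. The order was the same in the knockout, where Fabp4 reached 1364 ± 7.69, Fabp3 217 ± 31.3, Cd36 98.6 ± 1.39 and Acsl1 95.03 ± 13.4 CPM per kilobase. The 4 genes that rose were thus 4 of the 5 most abundant, with Fabp3 the other, and the lowest 4 had 75 to 310 reads a library. The length matters for the first place and for the lowest 4. Over all annotated exons Fabp4 spans 4489 bases against 896 in its principal transcript, and on that length Fabp3 comes first in WT. Acsl6 spans 9914 against 2594 bases, and in WT it moves from place 7 to place 10, behind Acsl3, Acsl5 and Slc27a4.

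Other genes of fatty acid supply and handling were read from a list of 60, of which 46 had enough reads. Of these, 5 were called higher and none lower, 29 had a log2 fold change above 0, and its median was 0.19. Over all tested genes 1.61% were called higher and 0.413% lower, 49.9% had a log2 fold change above 0, and its median was -0.00069. Lpl, the lipase that frees fatty acids from lipoproteins in capillaries, had 232 and 264 CPM in WT against 634 and 485 CPM in the knockout (log2 fold change 1.17 ± 0.16, adjusted p = 0.00409). Gpihbp1, which holds this lipase on the endothelium, had 25.5 and 29.1 CPM in WT against 33.6 and 43.7 CPM in the knockout. Its groups were apart too, but it was not called (0.49 ± 0.16, 95% interval 0.15 to 0.84, adjusted p = 0.167). Dbi, the acyl-CoA-binding protein that carries the product of the ACSL enzymes, had 87.5 and 96.4 CPM in WT against 152 and 204 CPM in the knockout (0.95 ± 0.15, adjusted p = 0.0119). Acbd4, another protein with an acyl-CoA-binding domain, rose by 0.92 ± 0.19 (adjusted p = 0.0361), and was not called when WT replicate 1 (0.81) or knockout replicate 2 (0.67) was left out, or without robust estimation (adjusted p = 0.058). Acss3, a mitochondrial short-chain acyl-CoA synthetase, had 12.6 and 11.1 CPM in WT against 34.2 and 23.0 CPM in the knockout (1.28 ± 0.20, adjusted p = 0.00822). Slc27a2, the FATP of liver and kidney, had 4 and 12 counts in WT against 54 and 40 in the knockout (2.09 ± 0.44, adjusted p = 0.0395), and was not called when WT replicate 1 (1.64), knockout replicate 1 (2.30) or knockout replicate 2 (1.90) was left out, by DESeq2 (adjusted p = 0.0515), or without robust estimation (adjusted p = 0.0537).

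Acsm3, a medium-chain acyl-CoA synthetase, and Angptl4, a PPAR target that inhibits Lpl, were chosen after their values were seen. Acsm3 had 3.89 and 3.20 CPM in WT against 31.6 and 13.9 CPM in the knockout, and Angptl4 6.25 and 9.29 against 34.98 and 18.5 CPM. Neither was called (adjusted p = 0.136 and 0.140), and the knockout libraries stood well apart from each other in both. Both were called by DESeq2 (adjusted p = 0.0012 and 0.0402), and over all alternatives the adjusted p ran from 0.00017 to 0.696 for Acsm3 and from 0.0015 to 0.545 for Angptl4.

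The remaining roles held no called gene. Of the 7 genes that act on where CD36 is placed in the cell, among them Cav1 and Cavin1 of caveolae, none was called and the median log2 fold change was -0.02. Lypla1, a depalmitoylase, had the smallest p of these (-0.31, adjusted p = 0.427). Of 4 endothelial regulators, Tcf15, a transcription factor known to drive Cd36 in capillaries, had 4.07 and 4.53 CPM in WT against 2.14 and 2.05 CPM in the knockout (-1.03 ± 0.27, adjusted p = 0.0925). Of 8 tested acyl-CoA thioesterases, which reverse the ACSL step, Acot2 had the smallest p (0.70 ± 0.21, adjusted p = 0.152). Of 6 transcriptional regulators, Pparg, the PPAR of fat cells, had 6.06 and 11.9 CPM in WT against 24.0 and 20.5 CPM in the knockout (1.29 ± 0.29, adjusted p = 0.0879). DESeq2 called Pparg (adjusted p = 0.00092). No other alternative that kept all libraries did, and its adjusted p there ran from 0.0519 (no robust estimation) to 0.106 (no low-count filter). Dropping 1 library moved the log2 fold change of Pparg between 0.90 (WT replicate 1 dropped) and 1.88 (WT replicate 2 dropped). Ppara, the PPAR of oxidative tissues, had 5.50 and 7.10 against 9.22 and 8.70 CPM (0.50 ± 0.20, adjusted p = 0.277). The other FABP genes were at or near 0: none of 7 had enough reads, and 3 had no read in any library.

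Markers of fat cells were higher in the same libraries. Of 14 markers, 11 were called higher, none was called lower and none was at 0. Their summed level was 623 and 718 CPM in WT against 3032 and 2553 CPM in the knockout, and the summed level of the 10 genes was 932 and 1104 CPM in WT against 2261 and 2370 CPM in the knockout. In each sum 1 gene had the largest part. Cfd alone had 380 and 420 CPM in WT against 2142 and 1607 CPM in the knockout. Fabp4 alone had 387 and 490 CPM in WT against 1218 and 1227 CPM in the knockout. Adipoq, the fat-cell hormone adiponectin, had 70.2 and 88.4 CPM in WT against 301 and 299.6 CPM in the knockout (log2 fold change 1.92 ± 0.14, adjusted p = 0.000163). Cfd, the protease adipsin (2.23 ± 0.17), and Cidec, a droplet protein (1.93 ± 0.14), rose too. The part of these markers in the levels of the 10 genes was not tested.

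Read against Adipoq, 1 of the 14 markers, each of the 10 genes was lower in both knockout libraries. Fabp4 had 5.51 and 5.54 reads per Adipoq read in WT against 4.05 and 4.10 in the knockout, the smallest shift of the 10. Slc27a1 had 0.762 and 0.662 reads per Adipoq read in WT against 0.494 and 0.417 in the knockout. Acsl1 had 2.10 and 2.18 in WT against 1.11 and 1.36 in the knockout, and Cd36 had 2.44 and 1.94 in WT against 1.10 and 1.13 in the knockout. Acsl3, the gene with the largest shift, had 0.184 and 0.169 in WT against 0.0490 and 0.0444 in the knockout. The order of these shifts follows from the fold changes above, since the divisor is the same for all genes. Adipoq thus had a larger fold change than each of the 10 genes, and Fabp4 came nearest to it.

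The pattern depends on the marker taken as divisor. Of the 14 fat-cell markers, 5 had a smaller log2 fold change than Fabp4, the smallest being that of Aqp7, a glycerol channel (0.78 ± 0.23, adjusted p = 0.144). Fabp4 was lower in both knockout libraries per read of 7 markers, higher per read of 1 and overlapping for 6. The ratio of Slc27a1 was lower for 7 markers and overlapping for 7, that of Cd36 lower for 10 and overlapping for 4, and that of Acsl1 lower for 11, higher for 1 and overlapping for 2. The marker against which Fabp4 and Acsl1 were higher was Aqp7: Fabp4 had 55.2 and 49.4 reads per Aqp7 read in WT against 102 and 69.5 in the knockout. Slc27a4 and Acsl3 were lower against all 14. For all 14 markers both knockout libraries lay above both WT libraries, as for 23% of tested genes, with a median log2 fold change of 1.70. The ratios of a gene share its reads, so these counts follow from the levels above and add no separate evidence. Per read of the 14 markers summed, where Cfd had the most reads, Fabp4 had 0.622 and 0.682 in WT against 0.402 and 0.481 in the knockout.

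**Figure D4:**
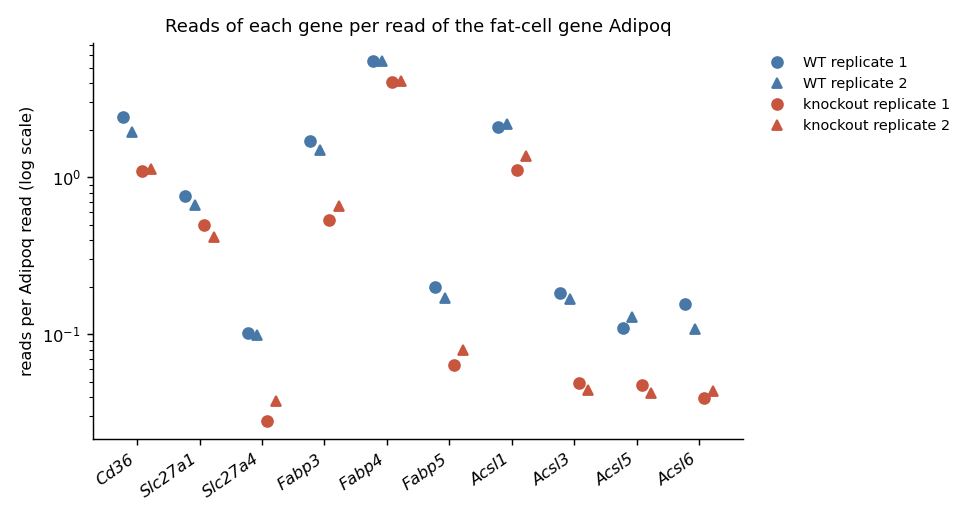
Reads of each gene per read of Adipoq in the same library, on a log axis, 1 point per library (blue WT, red knockout; circles replicate 1, triangles replicate 2). The red points lie below the blue ones for all 10 genes, closest for Fabp4 and farthest for Acsl3.

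None of 12 endothelial markers was called, and their sum was 376 and 382 CPM in WT against 347 and 323 CPM in the knockout. For 6 of them both knockout libraries lay below both WT libraries, as for 21.7% of tested genes. For 1 they lay above, as for 23%. The median log2 fold change was -0.20, so this divisor was itself lower in the knockout. Single endothelial markers were not taken as divisors. Per read of these markers together, Cd36 had 0.456 and 0.449 reads in WT against 0.955 and 1.05 in the knockout, and Fabp4 had 1.03 and 1.28 in WT against 3.51 and 3.80 in the knockout. Fabp5 had 0.0376 and 0.0397 in WT against 0.0550 and 0.0736 in the knockout. The ratios of Cd36 and Fabp4 to endothelial markers were thus more than 2-fold higher in both knockout libraries.

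Of other cell types, 11 macrophage markers held no call and summed to 328 and 382 CPM in WT against 385 and 416 CPM in the knockout. All 11 had a log2 fold change above 0, as did 49.9% of tested genes. For 5 of the 11 both knockout libraries lay above both WT libraries, as for 23% of tested genes, and for none did they lie below. Of 5 red blood cell markers 2 were called higher, the globin Hbb-bt (1.06) and the haem enzyme Alas2 (1.16), which was not called without WT replicate 2 (1.00) or knockout replicate 1 (0.91). The list summed to 243 and 266 CPM in WT against 549 and 389 CPM in the knockout. The 8 markers of slow and oxidative fibres, which are rich in FABP3, held no call and set the knockout libraries apart from each other: they summed to 346 and 408 CPM in WT, 531 CPM in knockout replicate 1 and 242 CPM in knockout replicate 2. Fabp3 ran the other way between these libraries, at 161 and 197 CPM. The 8 muscle fibre markers held no call, and their sum was lower in both knockout libraries, at 94156 and 86251 CPM in WT against 80524 and 83059 CPM. Of the 8, the titin gene Ttn had the smallest p (-0.49 ± 0.15, adjusted p = 0.144). It had 23784 and 23157 CPM in WT against 16101 and 17344 CPM in the knockout. Both knockout libraries lay below both WT libraries for 2 of the 8, Ttn and Acta1, as for 21.7% of tested genes. The groups of the other muscle fibre markers overlapped. Brown fat-cell markers stood at 8.53 and 57.1 CPM in WT against 52.0 and 52.4 CPM in the knockout, Schwann cell markers lay between 63.8 and 78.2 CPM, and skin keratinocyte markers reached at most 2.26 CPM, with Krt5 and Krt1 at 0 in every library. None of these 3 lists held a call.

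**Figure D5:**
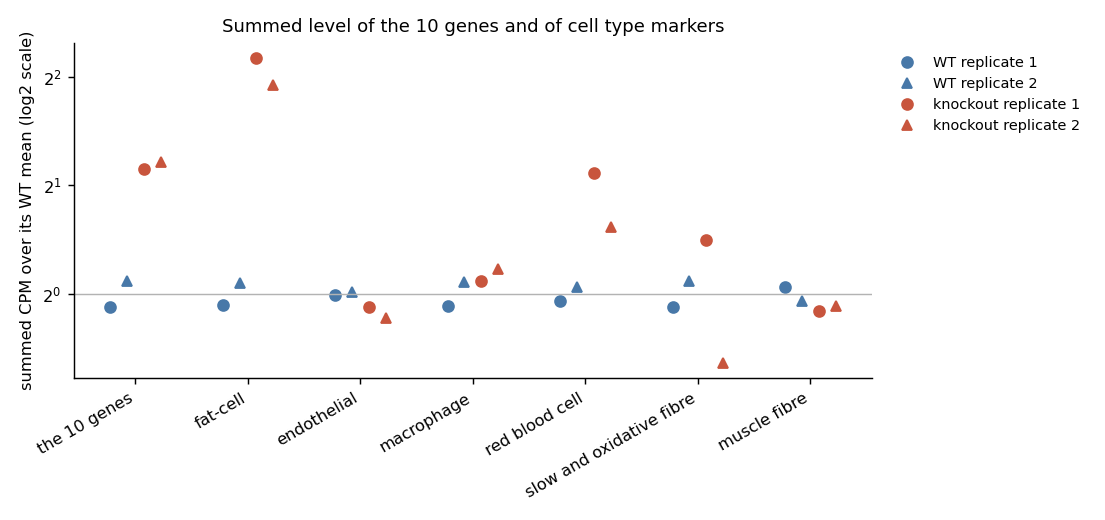
Summed CPM of the 10 genes and of 6 marker lists, each divided by its mean in WT, on a log2 axis, 1 point per library (blue WT, red knockout; circles replicate 1, triangles replicate 2). The fat-cell markers and the 10 genes lie well above 1 in both knockout libraries, the red blood cell markers by less, and the slow and oxidative fibre markers are split between the knockout libraries. Fabp4 has the largest part in the sum of the 10 genes.

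The mean profile of the 10 genes over the 4 libraries was compared with every protein-coding gene of at least 10 CPM, by Euclidean distance of centred log2(CPM + 1) values. The nearest were Taldo1, transaldolase of the pentose phosphate pathway (distance 0.0821), Adipor2, a receptor of adiponectin (0.0823), and Npc2, a lysosomal cholesterol carrier (0.0864). Taldo1 had 38.5 and 47.7 CPM in WT against 67.6 and 70.8 CPM in the knockout, close in shape to the mean of genes that rose and genes that did not pass. A likeness over 4 libraries is a description.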

How the data were processed

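RNA of 4 mouse quadriceps libraries was counted. Per the submitters' processing notes the authors used Trimmomatic, STAR and DESeq2 with GRCm38 (mm10); their versions and settings and the annotation are not stated in the labels. The deposited values are raw counts per Ensembl gene, and 99.8% of 55573 IDs matched GENCODE M21, which gave symbols, positions and lengths. The labels do not say that libraries came from separate animals, so p-values measure the spread between libraries (n = 2 a group), which may be technical. Replicates differed beyond counting noise (chi-square per degree of freedom 8.04 in WT, 12.5 in the knockout) and were not pooled.

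Genes were kept by filterByExpr (minimum count 10, minimum total 15), scaled with TMM factors (trimmed mean of M values) and tested with edgeR 4.0.16 (R 4.3.3), quasi-likelihood F test, robust and with the newer quasi-dispersion estimate, genotype as the only term, Benjamini-Hochberg adjustment over 13076 genes. A gene is called at an adjusted p below 0.05. SE come from the F statistic, and 95% intervals from its degrees of freedom. CPM are TMM-normalised, and ratios use raw counts. Scripts were tested on simulated data. DESeq2 1.42.0 and 12 other alternatives were tried, 1 of them after the data were seen. Sequences are from RefSeq (GRCm38.p6).

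The members and lists were chosen with earlier results of these data known. Named genes are the 10, called genes and the smallest p of each role in the list of other genes, up to 3 called markers a list, copies by symbol, Vdr, Xist with the Y-linked genes and the 3 nearest profiles. Outside this rule, and chosen after their values were seen, are Acsl4, Acsm3, Angptl4, Gpihbp1, Cav1, Cavin1, Ppara, Aqp7, Acta1, Myh4, Ttn, Krt1 and Krt5.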

Additional observations from a re-analysis of the deposited data

How the results depend on the processing

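The same 4 of the 10 genes were called higher, and none lower, in 12 of the 13 alternatives: other scalings, DESeq2, no robust estimation, no mitochondrial genes or Rn7sk, no X-linked or Y-linked genes, each library left out, the replicate block, and the older quasi-dispersion estimate. Without the low-count filter Fabp3 was called as well (log2 fold change 0.52, adjusted p = 0.0302; over all alternatives its adjusted p ran from 0.0302 to 0.368), and 476 genes were called in place of 265. Acsl3, which was not called, had log2 fold changes from -0.081 to 0.12 when 1 library was left out, with the sign turned without WT replicate 1 (-0.081) and without knockout replicate 1 (-0.069). Over all alternatives the log2 fold change ran from 0.96 to 1.02 for Cd36, 1.15 to 1.41 for Slc27a1, 1.32 to 1.66 for Fabp4 and 0.95 to 1.33 for Acsl1. The labels give both groups the replicate numbers 1 and 2 without saying that these pair animals, and the deviations of same-numbered libraries correlated at 0.039. With the replicate block 346 genes were called, among them 4 of the 10 genes, and 6 other genes of the pathway in place of 5. Leaving out 1 library gave 216 to 332 called genes. The SE was 0.21 for Slc27a4 (75 to 178 reads a library) and 0.20 for Acsl5 (81 to 300). It was 0.16 for Acsl3 (136 to 310) and 0.17 for Acsl6 (115 to 248), beside 0.16 for the far more abundant Acsl1. The part of depth in which genes were called was not tested.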
